A study of Mus musculus with 18 samples.

Results

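The genes described here are 9 genes of beta-adrenergic and cyclic AMP (cAMP) signalling in mouse left ventricle: Adrb1, Adcy5, Adcy6, Gnas, Gnai2, Gnai3, Pde3a, Pde4b and Pde4d. They were taken as a fixed list of gene symbols from a count table of 55450 genes, and all 9 were among the 16270 genes with enough counts to be tested. RNA sequencing was done on left ventricles of FVB/N mice, either wild type (WT) or with cardiac-specific overexpression of Gαq, the alpha subunit of the G protein that activates phospholipase C. The mice were male per the study's methods and received control diet (CD) or chow with 0.5 mg of the SGLT2 inhibitor ertugliflozin (ERTU) per g, starting at 4 weeks of age and lasting 16 weeks. On CD there were 4 WT and 5 Gαq libraries and on ERTU 5 WT and 4 Gαq libraries, and the groups are called WT CD, Gαq CD, WT ERTU and Gαq ERTU. All came from mice of 20 weeks of age, and the WT mice were littermates. The transgene was cardiac-specific, and the promoter that drives it is not given in the sources used here.

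Noradrenaline and adrenaline bind the beta1-adrenergic receptor of the cardiomyocyte, which acts through the stimulatory G protein Gs on adenylyl cyclase to make cAMP. Inhibitory G proteins of the Gi class oppose this step, and phosphodiesterases break cAMP down in separate compartments of the cell. cAMP activates protein kinase A, which phosphorylates calcium channels, the ryanodine receptor, phospholamban and sarcomere proteins and so raises the rate and force of contraction. The receptor, the G proteins and the cyclases of this pathway are known for altered abundance and coupling in failing hearts.

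Libraries are named by group and by the number in the count table, which runs over the whole series. Each held 15383566 to 20908363 counted read pairs. Values per library are given as CPM, which is a gene's count scaled to a common library total. Gnaq, which encodes the overexpressed protein, was at 45.5 to 230 CPM in the 9 WT libraries and at 1639 to 11661 CPM in the 9 Gαq libraries, so every library fitted its genotype label. Among Gαq hearts, mean Gnaq was 3213 CPM with ERTU (range 2234 to 5202) and 7465 CPM without it (range 1639 to 11661). Gαq CD 10, at 1639 CPM, lay below every Gαq ERTU library, and the other Gαq CD libraries lay above them all. The part of this Gnaq difference in comparisons that involve both Gαq groups was not tested. The 10 cardiomyocyte markers summed to 71058 to 109549 CPM, so heart muscle was present in every library. Some libraries stood apart. Myl7, a light chain of atrial muscle, was above 50 CPM in WT CD 5, Gαq CD 8, WT ERTU 14 and Gαq ERTU 20 (78.1 to 138 CPM) and at or below 33.7 CPM in the others. Pdk4, a kinase that limits glucose oxidation, was below 300 CPM in WT CD 4 and Gαq CD 7, 8 and 9 (105 to 261 CPM) and at 1306 CPM or above in the others. Results that rest on these libraries are given with and without them.

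Between genotypes the 9 genes divided into 2 that changed and 7 that did not pass the test. In the model with genotype and diet, Adcy5 rose and Pde3a fell in Gαq hearts at an adjusted p under 0.05 (edgeR quasi-likelihood test, Benjamini-Hochberg adjustment over 16270 genes). Over all genes tested, 19.6% passed this test by genotype, 9.72% higher and 9.92% lower, so 2 of 9 is close to the background. The median log2 fold change by genotype was 0.01 over the 9 genes and 0.00 over all genes tested, and the median size without sign was 0.14 and 0.16. By diet, 0 of the 9 genes passed, and so did 0 of all 16270 genes tested. Without adjustment 1 of the 9 (Adcy6) was under 0.05, against 7.7% of all genes. Of the 9 genes 0 passed under DESeq2 or limma voom, where 0.0135% and 0% of all genes passed. The study's methods give 4 to 5 hearts per group, and the p-values measure the spread between these libraries.

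**Figure D1:**
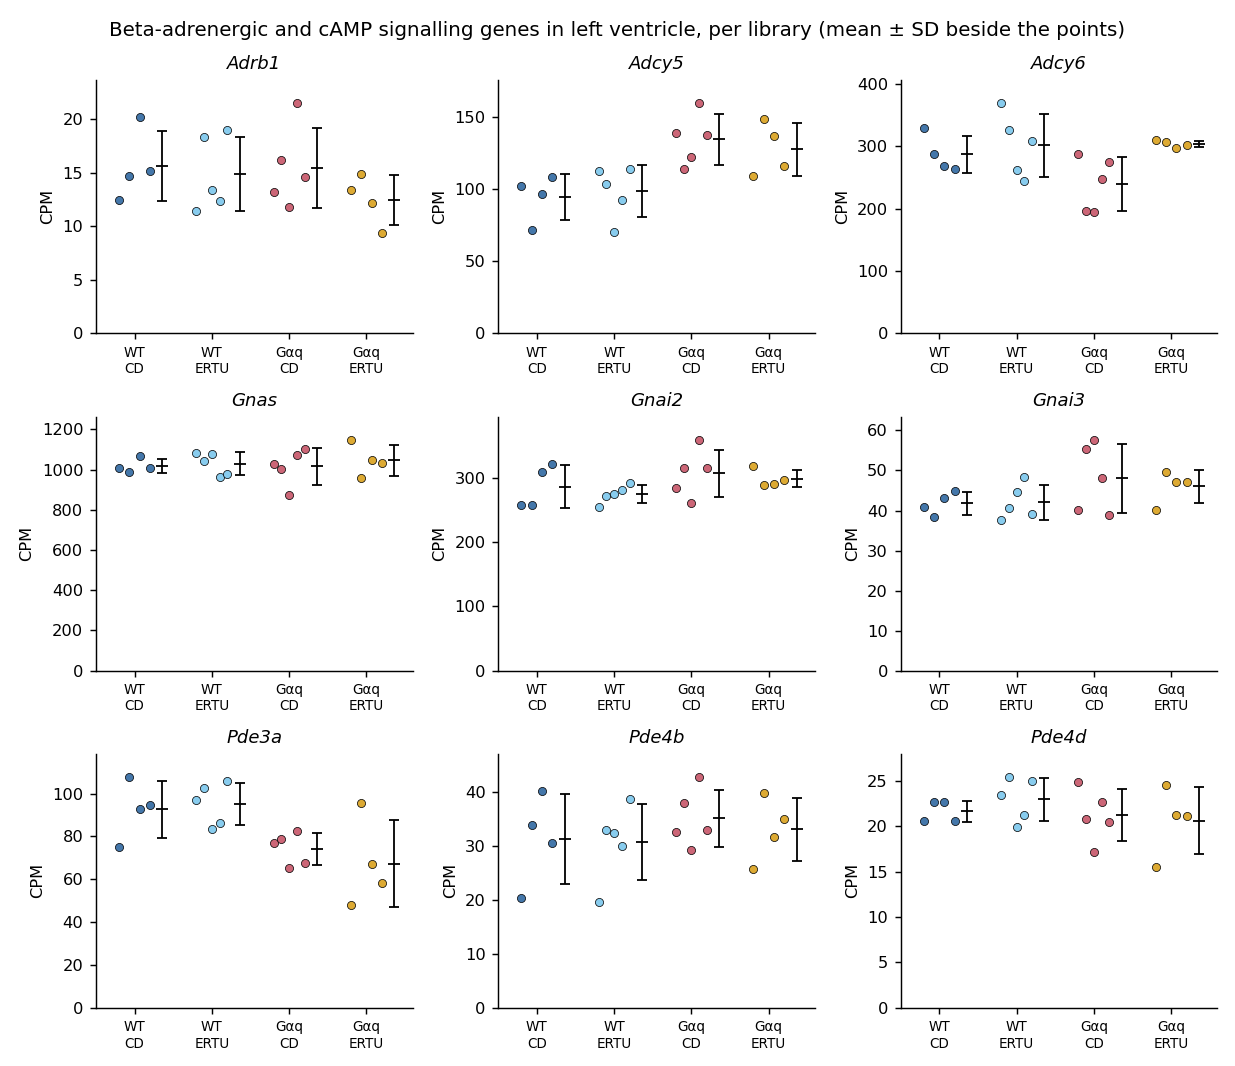
Level of each of the 9 genes in every library (vertical axes, CPM, starting at 0) in the 4 groups, with 1 point per library and the mean ± SD beside the points. Adcy5 is higher in Gαq CD (134 CPM on average) than in WT CD (94.6 CPM), Pde3a is lower in both Gαq groups (74.2 and 67.4 CPM) than in both WT groups (92.6 and 95.1 CPM), and the 4 Gαq ERTU libraries of Adcy6 lie within 297 to 309.6 CPM.

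Levels were compared between genes per kilobase (kb) of annotated exon. Averaged over the 18 libraries, the G protein genes stood highest, with Gnas at 91.8 ± 5.70 (SD) and Gnai2 at 77.2 ± 7.36 CPM per kb. Adcy6 followed at 41.5 ± 6.53, Adcy5 at 15.9 ± 3.35 and Gnai3 at 13.6 ± 1.78 CPM per kb. The phosphodiesterases and the receptor were lowest, with Pde3a at 6.48 ± 1.33, Adrb1 at 4.33 ± 0.96, Pde4b at 3.09 ± 0.60 and Pde4d at 1.81 ± 0.22 CPM per kb. Per kb of coding sequence, Gnai3 (41.9) stood above Adcy5 (30.1) and Pde4b (14.8) above Adrb1 (10.48), so those 2 pairs have no fixed order.

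Adrb1 encodes the beta1-adrenergic receptor, the main beta receptor of heart muscle, and lies at chr19:56722199-56733113 on the plus strand (GRCm38). Of the 9 genes it is the one at which the pathway begins. In WT CD libraries 1, 2, 4 and 5 it measured 12.4, 14.7, 20.1 and 15.1 CPM, and in WT ERTU libraries 11 to 15 it measured 11.4, 18.3, 13.4, 12.4 and 18.9 CPM. In Gαq CD libraries 6 to 10 the values were 13.2, 16.1, 11.8, 21.5 and 14.6 CPM, and in Gαq ERTU libraries 16, 17, 18 and 20 they were 13.3, 14.9, 12.2 and 9.37 CPM. All 4 groups overlapped, and the highest and the lowest library were both Gαq. The log2 fold change by genotype was -0.14 ± 0.14 (SE), with an edgeR adjusted p of 0.535 and a 95% interval from -0.42 to 0.15. ERTU in Gαq hearts gave -0.31 ± 0.19 (edgeR adjusted p = 0.669, interval -0.72 to 0.09). It was -0.16 without Gαq CD 9, the library of highest Adrb1, and also -0.16 without the libraries of low Pdk4, while without Gαq ERTU 17 it was -0.41.

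The promoters of Adrb1 and Adcy5 are shown because the first encodes the receptor and the second was the cyclase that changed, and cAMP can itself act on genes through the cAMP response element. They are the 250 bases before the RefSeq transcript start in GRCm38.p6, chr19:56721867-56722116 for Adrb1 and chr16:35154614-35154863 for Adcy5, both on the plus strand, printed 5′ to 3′. Capitals mark TGACG, the core of the element, searched on both strands (TGACG or CGTCA).
Adrb1: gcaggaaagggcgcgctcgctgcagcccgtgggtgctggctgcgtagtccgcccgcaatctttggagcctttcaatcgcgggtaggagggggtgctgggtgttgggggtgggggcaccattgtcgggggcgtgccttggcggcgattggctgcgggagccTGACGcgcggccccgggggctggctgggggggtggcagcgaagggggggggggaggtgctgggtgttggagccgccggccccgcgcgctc
Adcy5: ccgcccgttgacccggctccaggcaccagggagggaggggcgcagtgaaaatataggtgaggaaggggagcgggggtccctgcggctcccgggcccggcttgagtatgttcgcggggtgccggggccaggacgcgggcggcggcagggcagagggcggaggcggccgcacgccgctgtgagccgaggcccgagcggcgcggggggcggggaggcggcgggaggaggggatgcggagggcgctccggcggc
The Adrb1 window held the core once, 90 bases before the start, and the Adcy5 window held none. Of the 9 genes, 6 had a promoter among the RefSeq windows used, 12 windows in all, and the core lay in 5 windows of 3 genes, Adrb1, Gnas and Pde4b. The Gnas windows chr2:174327499-174327748 and chr2:174327518-174327767 overlap and hold the same core site, which is counted in each. The full element TGACGTCA, which contains the core, was in 0 of the 12. Over 32851 mouse promoter windows of the same length, 17.8% held the core and 1.55% the full element. These matches describe letters and not binding.

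Adcy5 encodes adenylyl cyclase 5, with adenylyl cyclase 6 the main source of cAMP in cardiomyocytes, and lies at chr16:35154877-35305738 on the plus strand. It was higher in Gαq hearts. In WT CD libraries 1, 2, 4 and 5 it measured 102, 71.4, 96.6 and 108 CPM, and in Gαq CD libraries 6 to 10 it measured 139, 114, 122, 159.8 and 138 CPM. Every Gαq CD library was above every WT CD library. In WT ERTU libraries 11 to 15 it was at 112, 104, 70, 92.5 and 114 CPM and in Gαq ERTU libraries 16, 17, 18 and 20 at 109, 148, 137 and 116 CPM, where library 16 lay among the WT values.

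By genotype the log2 fold change of Adcy5 was 0.44 ± 0.10 (SE), or 1.36-fold, with an edgeR adjusted p of 0.00404. It stayed between 0.38 and 0.48, with edgeR adjusted p-values of 0.00289 to 0.0108, when each library was left out in turn. On CD it was 0.51 ± 0.15 (edgeR adjusted p = 0.0400, exact permutation p = 0.0159, two-sided, the smallest that 126 splits of 4 against 5 libraries allow). On CD, 8.1% of all genes passed, 4% of all genes higher and 4.1% lower, and Adcy5 was 1 of the 9 genes to do so. On ERTU the difference was 0.37 ± 0.15 (edgeR adjusted p = 0.133, exact permutation p = 0.0635), and limma voom gave 0.42 with an adjusted p of 0.0409. The difference between these 2 effects was tested as the interaction of genotype and diet, which was -0.13 ± 0.21 (edgeR adjusted p = 0.9997). The call on CD was narrow: edgeR's adjusted p was 0.0715 without WT CD 1, 0.152 without WT CD 2, 0.0681 without WT CD 4, 0.0619 without Gαq CD 6, 0.100 without Gαq CD 9, 0.0620 without Gαq CD 10, 0.0504 without WT ERTU 12 and 0.0507 without Gαq ERTU 18. Without the 4 libraries of high Myl7 it was 0.61 (edgeR adjusted p = 0.0538) and without the 4 of low Pdk4 0.56 (edgeR adjusted p = 0.258), while the call by genotype held in both, at 0.50 and 0.44 (edgeR adjusted p = 0.00914 and 0.0194).

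Some cell type markers moved with genotype too, where 19.6% of all genes passed. Of 8 fibroblast markers 6 were higher in Gαq hearts, with sums of 1434 to 2681 CPM in WT CD, 1418 to 2714 in WT ERTU, 2530 to 3843 in Gαq CD and 2722 to 3149 in Gαq ERTU. Of 10 cardiomyocyte markers 4 were lower, with sums of 78330 to 109549, 72105 to 106031, 71058 to 95054 and 72809 to 97673 CPM in the same order. Among endothelial markers 2 of 7 were lower and among smooth muscle and pericyte markers 1 of 7. Higher were 2 of 3 skeletal muscle, 1 of 5 lymphocyte, 1 of 7 macrophage and 1 of 5 nerve and Schwann cell markers that were tested, and none of these markers was at 0 in every library. Of fat markers 0 of 5 tested passed, of atrium markers 0 of 4 and of red blood cell markers 0 of 4. In a bulk sample fewer cells of a type and less RNA per cell cannot be told apart, and the part of these shifts in the values of Adcy5 and Pde3a was not tested.

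Adcy6, at chr15:98589973-98610076 on the minus strand, encodes the cyclase isoform that was most abundant per kb in these hearts. In Gαq CD libraries 6 to 10 it measured 287, 196, 194, 248 and 274 CPM, and in Gαq ERTU libraries 16, 17, 18 and 20 it measured 309.6, 306, 297 and 302 CPM. The 2 Gαq groups did not overlap, and the ERTU group spanned the narrowest range of all. In WT CD libraries 1, 2, 4 and 5 it was at 329, 288, 268 and 263 CPM and in WT ERTU libraries 11 to 15 at 369.5, 326, 262, 244 and 308 CPM, and these 2 groups overlapped. Means were 287 ± 29.8 (SD, n = 4) in WT CD, 302 ± 50.4 (n = 5) in WT ERTU, 239.8 ± 43.5 (n = 5) in Gαq CD and 304 ± 5.24 (n = 4) in Gαq ERTU.

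ERTU in Gαq hearts went with a log2 difference in Adcy6 of 0.34 ± 0.13 (SE, 95% interval 0.07 to 0.62). The exact permutation p was 0.0159, the smallest possible, but edgeR gave an unadjusted p of 0.0172 and an adjusted p of 0.653. It did not pass. Among all genes 7.62% had an unadjusted p under 0.05 in this comparison and 0.00615% passed after adjustment. ERTU in WT hearts gave 0.07 ± 0.13, and the interaction was 0.27 ± 0.19 (edgeR adjusted p = 0.9997). Gαq on CD gave -0.26 ± 0.13 (edgeR adjusted p = 0.272) and Gαq on ERTU 0.01 ± 0.13 (edgeR adjusted p = 0.982). The 3 Gαq CD libraries with the lowest Adcy6, numbers 7, 8 and 9, were those with low Pdk4, at 150, 261 and 105 CPM against 1871 and 1816 CPM in numbers 6 and 10. Gnaq was at 2234 to 5202 CPM in Gαq ERTU. Gαq CD 7, 8 and 9 were highest in it, at 9692, 8036 and 11661 CPM against 6299 and 1639 CPM in numbers 6 and 10. Without them and WT CD 4, Adcy6 by ERTU in Gαq hearts was 0.11 and on CD by genotype -0.06. The part of whatever set these libraries apart in the Adcy6 values was not tested.

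The balance of the cyclase isoforms was described from the same levels. Adcy6 made up 56.6 ± 4.98% (SD, n = 4) of the summed CPM per kb of 9 cyclase genes in WT CD, 58.1 ± 3.26% (n = 5) in WT ERTU, 47.3 ± 4.44% (n = 5) in Gαq CD and 54.6 ± 2.53% (n = 4) in Gαq ERTU. Adcy5 made up 17.6 ± 2.36%, 17.9 ± 1.77%, 25.1 ± 1.26% and 21.6 ± 2.28% in the same order. The ratio of Adcy5 to Adcy6 per kb ran from 0.23 to 0.39 in WT CD, 0.25 to 0.36 in WT ERTU, 0.46 to 0.61 in Gαq CD and 0.33 to 0.46 in Gαq ERTU. It was higher in every Gαq CD library than in every WT library. In Gαq CD 7, 8 and 9, of low Pdk4, the ratio was 0.55, 0.59 and 0.61. In Gαq CD 6 and 10 it was 0.456 and 0.473, close to the highest Gαq ERTU library at 0.457. This ratio was chosen after both genes' values were seen and is given without a test.

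**Figure D2:**
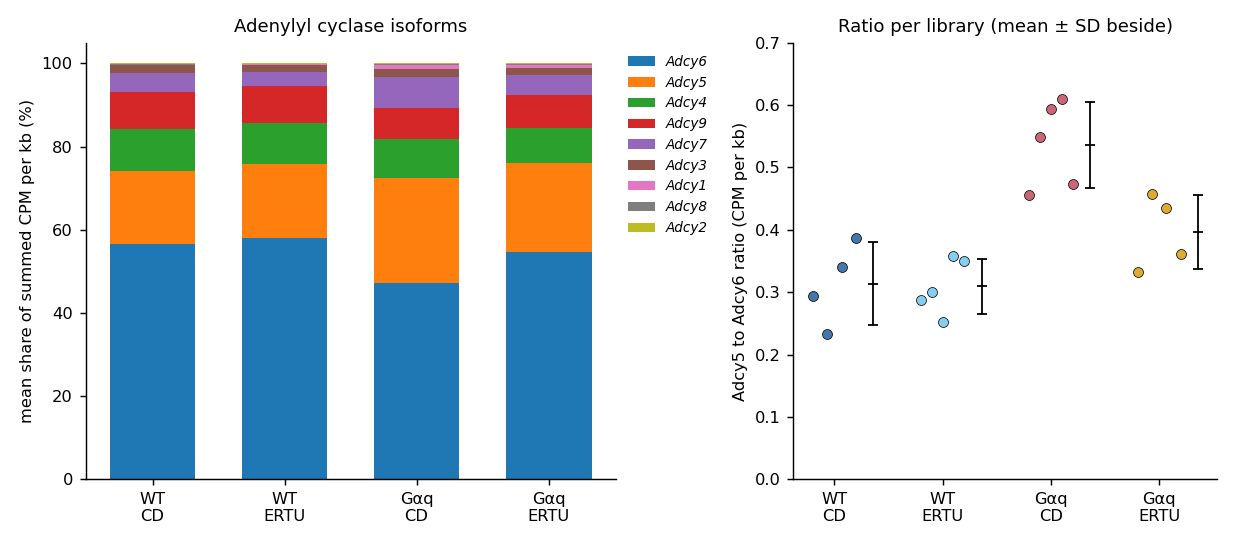
Left, mean share of each adenylyl cyclase gene in the summed CPM per kb of 9 cyclase genes (%), by group. Right, ratio of Adcy5 to Adcy6 (CPM per kb) in each library, with 1 point per library and the mean ± SD beside the points. The Adcy5 share is 25.1% in Gαq CD and 17.6% in WT CD, and the Gαq CD ratios (0.46 to 0.61) lie above all WT ratios (up to 0.39).

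Gnas encodes the alpha subunit of Gs, which activates adenylyl cyclase, at chr2:174284320-174346744 on the plus strand. It varied least for its level among the 9 genes. In WT CD libraries 1, 2, 4 and 5 it measured 1009, 987, 1066 and 1009 CPM, and in Gαq CD libraries 6 to 10 it measured 1028, 1001, 871, 1072 and 1103 CPM. WT ERTU libraries ranged from 961 to 1084 CPM and Gαq ERTU libraries from 958 to 1147 CPM, so all 4 groups shared one range. The log2 fold change by genotype was 0.01 ± 0.06 (edgeR adjusted p = 0.929), with an interval from -0.12 to 0.14. This locus has 24 annotated transcripts, and counts per gene do not tell Gs from the other products. On the opposite strand Nespas shares 988 exon bases with it and Gm20721 shares 1469, at up to 0.122 and at 2.06 to 4.57 CPM, and the study's methods give same-strand counting without saying whether the kit kept the strand.

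Gnai2 and Gnai3 encode alpha subunits of Gi, which inhibit adenylyl cyclase. Gnai2 (chr9:107614125-107635367, minus strand) was at 257 to 322 CPM in WT CD, 256 to 292 in WT ERTU, 261 to 359 in Gαq CD and 289.7 to 319 in Gαq ERTU. Its log2 fold change by genotype was 0.11 ± 0.07 (edgeR adjusted p = 0.273). On ERTU alone, with 289.7, 291, 298 and 319 CPM in Gαq against 256, 271, 275, 281 and 292 CPM in WT, the exact permutation p was 0.0476 while the edgeR adjusted p was 0.512. Gnai3 (chr3:108107280-108146146, minus strand) was at 38.3 to 44.8 CPM in WT CD, 37.5 to 48.2 in WT ERTU, 38.9 to 57.6 in Gαq CD and 40.1 to 49.6 in Gαq ERTU. Gαq CD spread most widely, with libraries 7 and 8 at 55.4 and 57.6 CPM, which were among those of low Pdk4. The log2 fold change of Gnai3 by genotype was 0.17 ± 0.08 (edgeR adjusted p = 0.161). Without the libraries of low Pdk4 it was 0.06 (edgeR adjusted p = 0.657), and on CD the difference went from 0.20 to -0.06, neither of which passed. Gnai2 had 77.04 to 79.6% of the summed CPM per kb of 5 inhibitory alpha genes as a group mean. In that family Gnao1, the alpha subunit of Go, had 3.57 ± 0.83% (SD, n = 4) in WT CD, 3.41 ± 0.86% (n = 5) in WT ERTU, 5.68 ± 0.50% (n = 5) in Gαq CD and 5.61 ± 0.62% (n = 4) in Gαq ERTU.

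Pde3a encodes the phosphodiesterase that milrinone inhibits, which breaks down cAMP near the sarcoplasmic reticulum, at chr6:141249269-141507448 on the plus strand. It was lower in Gαq hearts. In WT CD libraries 1, 2, 4 and 5 it measured 74.9, 108, 92.9 and 94.9 CPM, and in Gαq CD libraries 6 to 10 it measured 76.96, 78.9, 65.3, 82.5 and 67.5 CPM. WT CD library 1 fell among the Gαq values and the other 3 stood above them. In WT ERTU libraries 11 to 15 it was at 97.0, 103, 83.7, 86.1 and 106 CPM and in Gαq ERTU libraries 16, 17, 18 and 20 at 48.2, 95.5, 67.3 and 58.5 CPM. Library 17 fell among the WT values and the other 3 stood below all of them.

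By genotype Pde3a fell by 0.41 on the log2 scale (SE 0.11), which is 1.33-fold lower, with an edgeR adjusted p of 0.00910. Leaving out each library in turn gave -0.50 to -0.34 with edgeR adjusted p-values of 0.00105 to 0.0235. Without the 4 libraries of high Myl7 it was -0.37 and just missed the threshold (edgeR adjusted p = 0.0524). On CD the difference was -0.32 ± 0.15 (edgeR adjusted p = 0.231, exact permutation p = 0.0635). On ERTU it was -0.50 ± 0.15 (edgeR adjusted p = 0.0501, exact permutation p = 0.0476). That value sat at the threshold: edgeR's adjusted p was 0.0459 without WT CD 1, 0.0424 without WT ERTU 14 and 0.00248 without Gαq ERTU 17, DESeq2 gave 0.0225 and limma voom 0.00367. In the other direction it was 0.129 without the libraries of high Myl7 and 0.0713 without those of low Pdk4. Over single libraries left out the log2 fold change ran from -0.71 (without Gαq ERTU 17) to -0.37 (without Gαq ERTU 16), and the edgeR adjusted p reached 0.155. Over all genes 8.17% passed in this comparison, 3.93% higher and 4.24% lower, and of the 9 genes 0 did in edgeR (2 at an unadjusted p under 0.05), 1 in DESeq2 and 2 in limma voom, where 10.3% and 16.9% of all genes passed. The interaction of genotype and diet for Pde3a was -0.18 ± 0.21 (edgeR adjusted p = 0.9997). On the opposite strand Gm28523 shares 741 exon bases with Pde3a, at 0.980 to 2.26 CPM.

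Pde4b and Pde4d encode cAMP-specific phosphodiesterases of the PDE4 family, which limit beta-adrenergic signals at the L-type calcium channel and the ryanodine receptor. Pde4b (chr4:102087543-102607259, plus strand) averaged 31.3 ± 8.33 CPM (SD, n = 4) in WT CD, 30.8 ± 6.99 (n = 5) in WT ERTU, 35.1 ± 5.30 (n = 5) in Gαq CD and 33.1 ± 5.88 (n = 4) in Gαq ERTU. Pde4d (chr13:108449948-109953461, plus strand) averaged 21.7 ± 1.19, 23.0 ± 2.39, 21.2 ± 2.85 and 20.6 ± 3.72 CPM in the same order. The groups overlapped for both. Their log2 fold changes by genotype were 0.14 ± 0.13 (edgeR adjusted p = 0.505) and -0.09 ± 0.09 (edgeR adjusted p = 0.498). The intervals ran from -0.13 to 0.41 for Pde4b and from -0.27 to 0.09 for Pde4d. Each of the PDE4 genes has several promoters, and Pde4b and Pde4d counts pool 13 and 20 annotated transcripts.

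**Figure D3:**
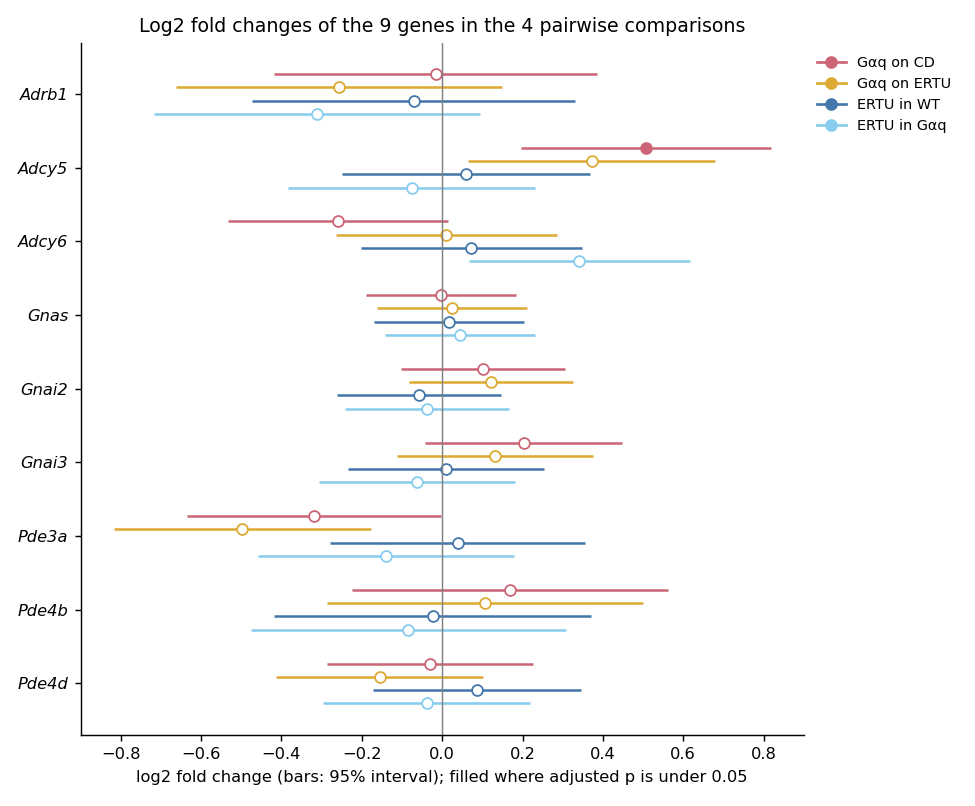
Log2 fold changes of the 9 genes (horizontal axis) in the 4 pairwise comparisons, with 95% intervals of the edgeR fit as bars and filled points where the adjusted p is under 0.05. The one filled point is Adcy5 for Gαq on CD (0.51), the intervals of Pde3a lie below 0 in both Gαq comparisons, and that of Adcy6 lies above 0 for ERTU in Gαq (0.07 to 0.62).

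The order of the 4 groups was also examined for each gene. For all 9 genes, each pair of groups next to each other in the order of mean log2 CPM overlapped in range, and the smallest exact permutation p among such neighbours was 0.0635, for Adcy5 between Gαq ERTU and WT ERTU and for Pde3a between WT CD and Gαq CD. In the 4 comparisons of the design, 36 pairwise permutation tests were made on the 9 genes. Further tests covered the other pairs of groups, which the order draws on, and the variance-stabilized values. None of these permutation tests was adjusted. ERTU in WT hearts passed for 0 of the 9 genes in edgeR, and likewise for 0 of all 16270 genes tested. At an unadjusted p under 0.05 it had 0 of the 9 against 2.24% of all genes, and DESeq2 and limma voom called 0. ERTU in Gαq hearts passed for 0 of the 9, where 0.00615% of all genes did. Unadjusted it had 1, Adcy6, against 7.62% of all genes. The interaction passed for 0 of the 9 and for 0 of all genes tested, with 0 unadjusted against 1.92% of all genes. DESeq2 and limma voom also gave 0 in both. The comparisons share libraries. By ERTU in WT and in Gαq hearts, Adcy5 differed by 0.06 and -0.08, Pde3a by 0.04 and -0.14 and Adrb1 by -0.07 and -0.31 on the log2 scale.

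The genes whose profile over the 18 libraries was most like Adrb1 were Jarid2, Wdr6 and Dusp7, with root-mean-square differences of 0.13, 0.15 and 0.16 in centred log2 CPM, where Adrb1 itself varied by 0.30 and the median gene differed by 0.40. For Adcy5 they were Pbxip1 (0.15), Slco3a1 (0.18) and Zfp651 (0.18), against 0.31 and 0.41.

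A list of 114 other genes of the pathway was examined by role, of which 105 were tested. By genotype 15 rose and 11 fell, 24.8% against 19.6% of all genes, and the median log2 fold change of the 105 was -0.01. On CD 8 rose and 7 fell (14.3% against 8.1%), and on ERTU 5 rose and 4 fell (8.57% against 8.17%). By diet 0 of the 105 passed in edgeR with 15 unadjusted, and by ERTU in WT 0 with 6. By ERTU in Gαq 0 of the 105 passed with 10 unadjusted and by the interaction 0 with 3. Of all genes tested, 0%, 0%, 0.00615% and 0% passed in edgeR in the same order. Over all genes 7.7%, 2.24%, 7.62% and 1.92% were under 0.05 unadjusted in that order. Of the pathway list, 0 passed in each under DESeq2 and limma voom. The fibroblast and cardiomyocyte marker sums given above moved with genotype beside all of these, and their part was not tested. Tnni3 is in both the cardiomyocyte marker list and the list of the pathway.

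**Figure D4:**
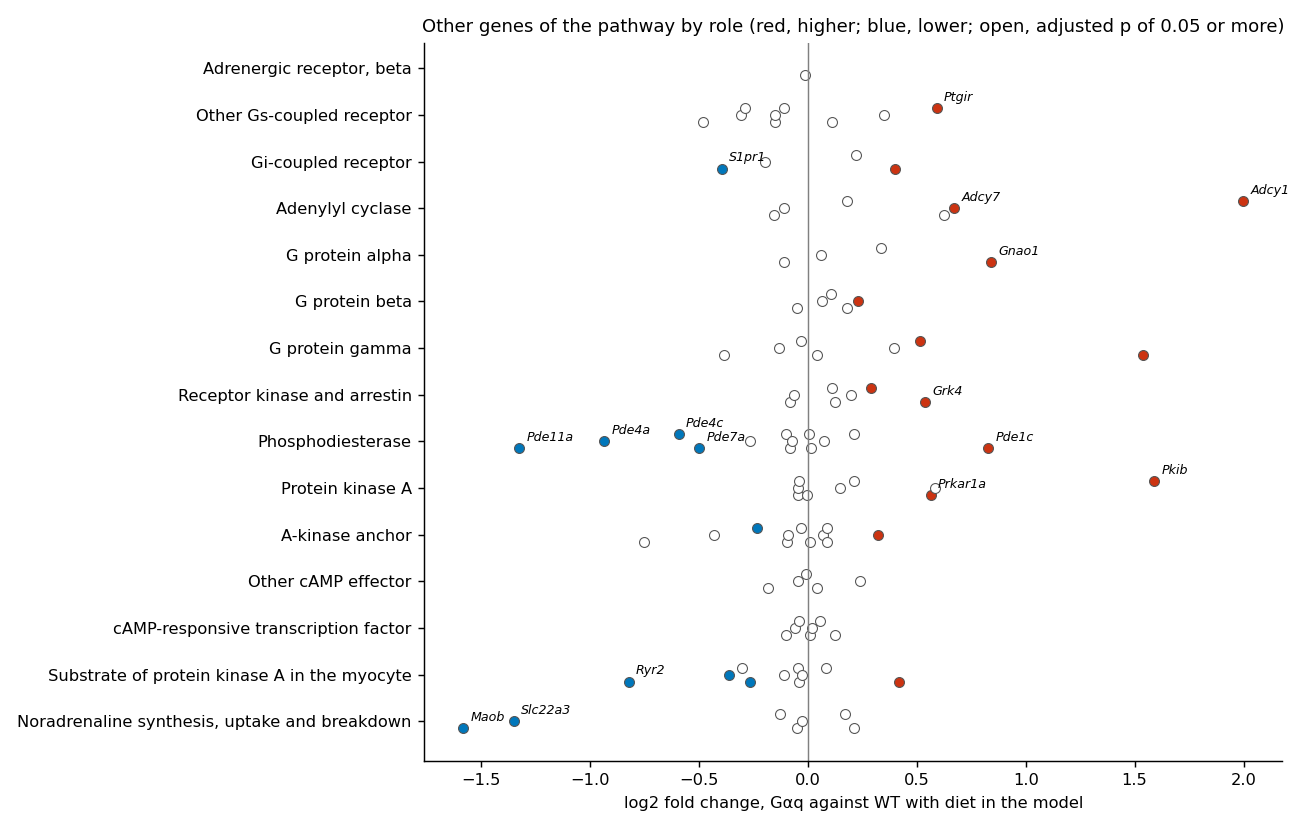
Log2 fold change by genotype (horizontal axis) of each of the 105 other pathway genes tested, in rows by role, red where higher and blue where lower at an edgeR adjusted p under 0.05 and open otherwise. Names are given for the 8 highest and 8 lowest of those that passed with a mean log2 CPM of at least 1, and the rows of cAMP-responsive transcription factors and other cAMP effectors hold no coloured point.

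Receptors, G proteins and receptor kinases held 9 of the 26 genes that passed. By role 0 to 50% of the 1 to 9 genes tested passed, against 19.6% of all genes. Among 9 other Gs-coupled receptors 1 rose, Ptgir, the prostacyclin receptor, from 8.28 to 9.45 CPM in WT CD and 5.63 to 9.22 in WT ERTU to 11.02 to 14.2 in Gαq CD and 9.93 to 18.5 in Gαq ERTU (log2 fold change 0.59 ± 0.12, edgeR adjusted p = 0.00107). Among 4 Gi-coupled receptors Chrm2, the muscarinic receptor of the heart, rose (0.40 ± 0.11, edgeR adjusted p = 0.0121) and S1pr1, a sphingosine-1-phosphate receptor, fell (-0.39 ± 0.14, edgeR adjusted p = 0.0451). Of 4 G protein alpha genes Gnao1 rose, from 27.2 to 48.5 CPM over the WT libraries to 55.5 to 74.8 CPM over the Gαq libraries (0.84 ± 0.11, edgeR adjusted p = 1.73e-05). Genotypes did not overlap for Gnao1 on either diet. Gnb5 rose among 5 beta genes, and Gng2 and Gng8 rose among 7 gamma genes. Among receptor kinases and arrestins, which switch the receptor off, Grk4 (0.54 ± 0.18, edgeR adjusted p = 0.0364) and Arrb2 (0.29 ± 0.08, edgeR adjusted p = 0.0129) rose of 7. Grk2 and Grk5, the main receptor kinases of heart muscle, were at -0.07 ± 0.05 and 0.12 ± 0.09 and did not pass.

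Among the 6 other adenylyl cyclases tested 2 rose, 33.3% against 19.6% of all genes. Adcy1, a cyclase stimulated by calcium and calmodulin, measured 0.899 to 2.70 CPM over the WT libraries, 6.04 to 10.47 CPM in Gαq CD and 3.47 to 11.6 CPM in Gαq ERTU, with no overlap between genotypes on either diet. Its log2 fold change by genotype was 2.00 ± 0.22 (edgeR adjusted p = 1.46e-06). Even so it made up 0.90 ± 0.24% of the summed cyclase CPM per kb in Gαq CD, against 0.21 ± 0.05% in WT CD. Adcy7, a cyclase known from blood cells among others, rose by 0.67 ± 0.14 (edgeR adjusted p = 0.00196). Within Gαq CD, Adcy7 was highest in the 3 libraries of low Pdk4. It measured 41.1, 45.0 and 49.5 CPM in Gαq CD 7, 8 and 9 against 25.1 and 23.4 CPM in 6 and 10. WT CD 4, also of low Pdk4, was at 23.0 CPM, within the WT CD range of 17.7 to 31.0 CPM. Without the libraries of low Pdk4 the log2 fold change of Adcy7 by genotype was 0.46 (edgeR adjusted p = 0.0397). The lymphocyte markers summed to 2.07 to 3.93 CPM in WT CD, 1.62 to 2.78 in WT ERTU, 3.93 to 8.31 in Gαq CD and 2.71 to 5.97 in Gαq ERTU. The macrophage markers summed to 209.8 to 347, 219 to 271, 271 to 397 and 246 to 321 CPM in the same order, and the part of either in the Adcy7 values was not tested.

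Of 13 other phosphodiesterases 4 fell and 1 rose, 38.5% against 19.6% of all genes. Pde4a, of the same family as Pde4b and Pde4d, measured 43.8 to 104 CPM over the WT libraries, 30.5 to 47.0 CPM in Gαq CD and 28.1 to 41.3 CPM in Gαq ERTU. Its log2 fold change was -0.93 ± 0.15 (edgeR adjusted p = 0.000121), and on each diet the genotypes did not overlap. Pde4c, a further member of the family, fell by 0.59 (SE 0.14, edgeR adjusted p = 0.00546). Pde11a, which breaks down both cAMP and cGMP, was at 6.91 to 13.4 CPM in the WT libraries, 1.07 to 3.51 CPM in Gαq CD and 3.40 to 7.03 CPM in Gαq ERTU (-1.32 ± 0.25, edgeR adjusted p = 0.000544). For Pde11a the difference was -2.01 ± 0.29 on CD and -0.69 ± 0.28 on ERTU, and the interaction was 1.33 ± 0.40, with an edgeR p of 0.00379 unadjusted and 0.9997 adjusted, so the 2 differences were not told apart. Pde1c, a phosphodiesterase activated by calcium and calmodulin, rose from 35.2 to 65.8 CPM over the WT libraries to 69.3 to 118 CPM over the Gαq libraries (0.83 ± 0.13, edgeR adjusted p = 0.000111). As a share of the summed CPM per kb of 16 phosphodiesterase genes, group means in the order used above were 16.7, 16.7, 10.6 and 10.4% for Pde4a, 4.85, 5.01, 10.6 and 10.2% for Pde1c and 14.2, 14.5, 13.4 and 12.1% for Pde3a. Pde7a fell by 0.50 (SE 0.16, edgeR adjusted p = 0.0368).

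Only the called pathway genes named for the highest and lowest log2 fold changes were followed singly as each library was left out. Among them, the calls of S1pr1, Pde7a and Grk4 depended on single libraries. The other called pathway genes, such as Chrm2 and Arrb2, were not followed singly. Of the pathway list, 20 to 25 genes were called by genotype in these fits, against 26 with all libraries. Calls of genes not followed singly were therefore also lost in some fits. S1pr1 was not called when any of 12 libraries was left out (edgeR adjusted p = 0.0561 to 0.112), which were all but WT CD 4, Gαq CD 6, WT ERTU 12 and 15 and Gαq ERTU 18 and 20. Pde7a was not called without WT CD 1 or 2, Gαq CD 7 or 9, WT ERTU 11 or 12 or Gαq ERTU 16 or 20 (edgeR adjusted p = 0.0571 to 0.112). Grk4 was not called without WT CD 2 or 5, Gαq CD 7 or 9, WT ERTU 11 or 14 or Gαq ERTU 16 or 17 (edgeR adjusted p = 0.0522 to 0.0824). S1pr1 and Grk4 were also not called by limma voom (adjusted p = 0.136 and 0.0859). Without the 4 libraries of high Myl7 the edgeR adjusted p was 0.0614 for Pde7a, 0.127 for S1pr1 and 0.116 for Grk4. Without the 4 of low Pdk4 it was 0.0623, 0.149 and 0.119 in the same order.

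**Figure D5:**
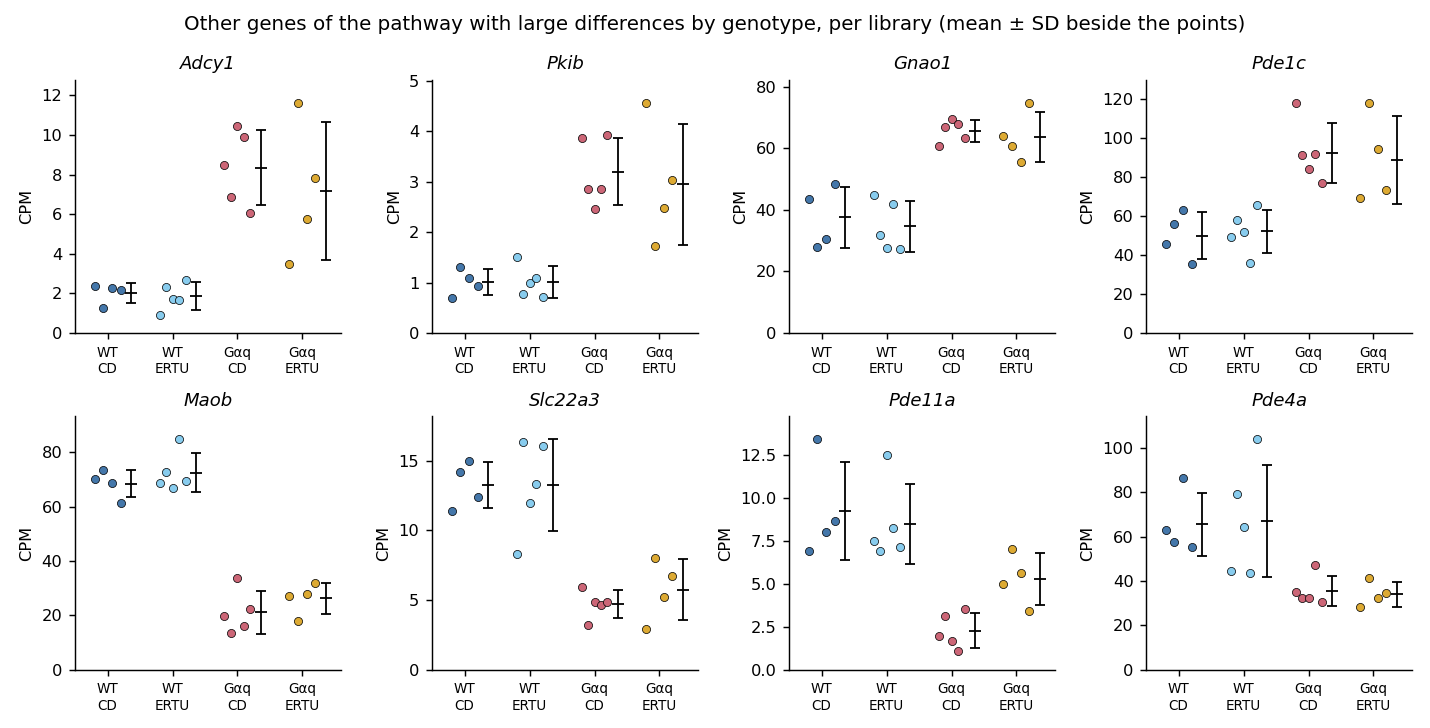
Levels in every library (vertical axes, CPM, starting at 0) of the 4 other pathway genes with the highest and the 4 with the lowest log2 fold change by genotype among those with a mean log2 CPM of at least 1, by group, with 1 point per library and the mean ± SD beside the points. Maob lies at 61.4 to 84.7 CPM in WT and at 13.4 to 33.9 CPM in Gαq libraries, and Adcy1 at up to 2.70 CPM in WT and at 3.47 CPM or more in Gαq libraries.

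Downstream of cAMP, 2 of 9 protein kinase A genes rose, and this 22.2% is close to the 19.6% of all genes. Pkib, an inhibitor of the kinase, was at 0.691 to 1.498 CPM over the WT libraries and 1.72 to 4.57 CPM over the Gαq libraries (1.59 ± 0.20, edgeR adjusted p = 6.99e-06). Its counts were low, at 11 to 84 per library. Prkar1a, the type I regulatory subunit, rose by 0.56 ± 0.14 (edgeR adjusted p = 0.00705), while the catalytic subunit Prkaca was at -0.01 ± 0.09. Prkar1a was at 485 to 707 CPM in WT CD and 649 to 1181 in Gαq CD. On ERTU it was at 431 to 776 CPM in WT and 594 to 1022 in Gαq, or 594 to 638 without library 17. Genotypes overlapped on both diets (exact permutation p = 0.0317 on CD and 0.159 on ERTU). Of 11 anchoring proteins Akap11 rose and Akap7 fell, 18.2% against 19.6% of all genes. Of 10 substrates of the kinase Ryr2, the calcium release channel, fell from 1291 to 2750 CPM over the WT libraries to 751 to 1582 CPM over the Gαq libraries (-0.82 ± 0.15, edgeR adjusted p = 0.000531). Cacnb2 (-0.36 ± 0.12) and Tnni3 (-0.27 ± 0.09) also fell, Mybpc3 (0.42 ± 0.11) rose, and phospholamban (Pln) was at -0.11 ± 0.09 and did not pass. Of these 10 substrates 40% passed, against 19.6% of all genes. Creb1, the transcription factor that binds the cAMP response element, was at -0.10 ± 0.10 and did not pass.

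The lowest log2 fold changes were among 7 genes of noradrenaline synthesis, uptake and breakdown, of which 2 fell (28.6% against 19.6% of all genes). Maob, monoamine oxidase B, was at 61.4 to 73.3 CPM in WT CD, 66.8 to 84.7 in WT ERTU, 13.4 to 33.9 in Gαq CD and 18.1 to 31.7 in Gαq ERTU (-1.58 ± 0.14, edgeR adjusted p = 8.67e-08). Slc22a3, a transporter that takes up catecholamines outside neurons, was at 8.33 to 16.4 CPM over the WT libraries and 2.92 to 8.03 CPM over the Gαq libraries (-1.35 ± 0.17, edgeR adjusted p = 5.96e-06). For both genes every Gαq library was below every WT library. Maoa, the paralogue of Maob, was at -0.03 ± 0.12 (edgeR adjusted p = 0.900).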

How the data were processed

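RNA of left ventricles was sequenced in 18 libraries. The deposited counts are unnormalized read pairs per gene. The authors prepared poly(A)-selected libraries, aligned reads to mm10 with STAR 2.6.0c and counted unique, same-strand pairs over nuclear-encoded genes with featureCounts (Subread 1.6.2, an Ensembl annotation). The other deposited table holds the authors' variance-stabilized values on a log2 scale. DESeq2 made them, at version 1.23.10 in the submitters' processing notes and another in the study's methods. They served only as a second scale for the permutation tests. Symbols and positions came from the GENCODE M21 annotation of GRCm38, to which 55190 of 55450 gene IDs (99.5%) matched, and promoter sequences from RefSeq windows of GRCm38.p6.

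Counts were tested in R 4.3.3 with edgeR 4.0.16 (filterByExpr, TMM scaling, quasi-likelihood F tests, Benjamini-Hochberg adjustment over 16270 genes). Genes left out held 0.0906% of the counts. Genotype and diet came from a model with both, and the 4 pairwise comparisons and the interaction from a model with 1 mean per group. log2 CPM used a prior count of 2. Single values were also compared by two-sided exact permutation tests on log2 CPM. Depth was 15383566 to 20908363 counts per library, and counting error was smallest for genes with high counts. The scripts were tested on simulated data.

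The genes and lists were chosen with earlier results of these data known. Named with values were all 9 genes and, of the other pathway genes past the threshold by genotype with a mean log2 CPM of at least 1, the 8 highest and 8 lowest, and 3 genes of the most like pattern for Adrb1 and for Adcy5, the gene of the smallest p by genotype. Myl7, Pdk4 and Gnaq were named as checks of the libraries. Genes outside that rule (Chrm2, Arrb2, Grk2, Grk5, Prkaca, Akap7, Akap11, Cacnb2, Tnni3, Mybpc3, Pln, Maoa, Creb1, Gnb5, Gng2 and Gng8) were named after their values were seen. Also tried were size factors by median of ratios, no filter, a mean CPM of at least 1, DESeq2 1.42.0, limma voom 3.58.1 with sample weights, only the groups compared, each library left out, coding length and the variance-stabilized values. Protein sequences were not used here, and 1 gene of the pathway list is not reported here.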

Additional observations from a re-analysis of the deposited data

Results flagged for a closer look

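Single libraries lay apart within 7 of 100 groups of values examined, and chance alone gives about 1 in 20, or 5. None concerned the 9 genes. In brackets stands the distance to the closest library as a share of the group's whole range. Pde11a was high in WT ERTU 13, at 12.5 CPM against 6.91 to 8.22 CPM (0.7642). Pde4a was high in Gαq CD 9, at 47.0 against 30.5 to 34.9 CPM (0.7321). Ryr2 was low in WT CD 4, at 1693 against 2118 to 2154 CPM (0.9232). Pde4c was high in WT CD 1, at 19.9 against 10.53 to 11.6 CPM (0.89), and in WT ERTU 11, at 19.7 against 10.02 to 12.8 CPM (0.7124). Adcy1 was low in WT CD 2, at 1.252 against 2.20 to 2.36 CPM (0.8491). Prkar1a was high in Gαq ERTU 17, at 1022 against 594 to 638 CPM (0.8988).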

How the results depend on the processing

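No paired analysis was possible because the numbers of the columns run over the whole series and no number is shared between groups, so the planned fit with a replicate block was not run. For Gαq on ERTU, 1 of the 9 genes passed with median-of-ratios size factors, no filter, a mean CPM of at least 1 or DESeq2. With limma voom 2 of the 9 passed, and 0 passed in the fit reported. Of all genes, 8.18% passed with median of ratios, 3.98% with no filter and 8.79% with a mean CPM of at least 1. Of the other pathway genes 14 passed under DESeq2 and 17 under limma voom, against 9, while the share of all genes that passed went from 8.17% to 10.3% and 16.9%. The 2 settings that left out libraries were chosen after seeing the data. Without the 4 libraries of high Myl7, 1 of the 9 genes passed by genotype and 0 on CD, and 8 other pathway genes on CD, against 17.8% and 6.71% of all genes. Without the 4 of low Pdk4, 0 of the 9 genes and 5 other pathway genes passed on CD, against 1.9% of all genes. These settings test fewer libraries, and the cause was not tested further. With each of the 18 libraries left out in turn, the counts were, for the 9 genes, 2 to 2 by genotype, 0 to 1 on CD and 0 to 1 on ERTU, and for the other pathway genes 20 to 25 by genotype, 9 (without WT CD 1) to 15 on CD and 8 to 12 on ERTU. It gave 0 to 0 by diet, ERTU in WT, ERTU in Gαq and the interaction. Of the 9 genes and the pathway genes followed singly, 0 called values reversed in any setting. With coding length all 9 levels per kb moved. Adrb1 rests on 190 to 361 counts per library and Pkib on 11 to 84, so counting error weighs most on such genes.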
